A study of Homo sapiens with 8 samples.

Results

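EnzaR is a line of human prostate cancer cells labelled as resistant to enzalutamide, and LNCaP is an established androgen-sensitive prostate cancer line, labelled here as sensitive to the drug. All 8 RNA sequencing libraries of the series were used, and the 4 EnzaR libraries were compared with the 4 LNCaP libraries, so that the treatments inside each line stand as its spread. EnzaR cells were grown in RPMI1640 with serum and 10 uM enzalutamide and were given 40 nM of a control siRNA (siNC, 2 libraries) or of siRNA against YAP1 (siYAP1, 2 libraries) for 48 h. LNCaP cells were grown in the same medium without the drug, with 1 library each of a vehicle control, of cells given extracellular vesicles from EnzaR cells treated with control siRNA (EV-siNC), and of cells given vesicles from EnzaR cells depleted of YAP1 (EV-siYAP1) or of COUP-TFII (EV-siCII), also for 48 h. The members described are the genes whose 4 values in 1 line all lay outside the range of the other line, which held for 10330 of the 15622 genes tested, or 66.1%. Genes on the Y chromosome were left out. The resistant line, the drug in its medium and the siRNA transfection go together in the labels and cannot be told apart here. The labels name neither the cells EnzaR was derived from nor whether it is a single clone, and they do not say that each library is a culture of its own. The p-values are thus no more than a measure of these libraries' own spread, part of which may be technical.

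Prostate luminal cells depend on androgens, which drive KLK3, KLK2, TMPRSS2 and other prostate genes together with the pioneer factors FOXA1 and HOXB13. Enzalutamide is an antiandrogen that blocks this signalling, and resistant cells are known to regain the androgen output, to use other steroid hormones or to change lineage. YAP1 is the transcriptional effector that the Hippo kinases hold out of the nucleus, and COUP-TFII is the orphan nuclear receptor encoded by NR2F2. Cell cycle genes fall into a replication wave controlled by E2F factors through the retinoblastoma protein and a later mitotic wave controlled through the DREAM complex, B-MYB and FOXM1.

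Total counts lay between 16682669 and 18248939 per library, and a count of 3 corresponded to 0.164 to 0.18 CPM. The share of counts from the mitochondrial genome was 6.65% to 6.83% in EnzaR and 4.76% to 5.37% in LNCaP. The SD of the log2 difference over genes was 0.37 and 0.42 between replicate EnzaR libraries, 0.43 to 0.52 between the EnzaR treatments, 0.34 to 0.44 between the LNCaP treatments and 1.38 to 1.47 between libraries of different lines. The first principal component held 88.1% of the variance and separated the lines, and the second held 4.14%. YAP1 was at 59.9, 49.03, 6.04 and 7.27 CPM in the EnzaR libraries (siNC 1, siNC 2, siYAP1 1 and siYAP1 2, the order used throughout), with the depleted libraries low, and at 59.6, 66.8, 61.95 and 66.5 CPM in LNCaP (control, EV-siNC, EV-siYAP1 and EV-siCII, likewise). CPM, the unit of all levels here, are counts brought to 1 common library total, with libraries scaled by the trimmed mean of M values (TMM). NR2F2 was at 45.97 ± 2.01 CPM in EnzaR and 51.3 ± 2.37 CPM in LNCaP (SD, n = 4). Every EnzaR value of NR2F2 lay below the LNCaP range, but the difference was not called (log2 fold change -0.16, edgeR adjusted p = 0.0992).

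Both lines carried luminal prostate transcripts, and defining markers of basal cells were at or near 0. KRT8 was at 740.3 ± 71.1 CPM in EnzaR and 1170.2 ± 137 CPM in LNCaP, KRT18 at 580.3 ± 69.9 and 583 ± 48.8 CPM, and HOXB13 at 402 ± 26.7 and 552 ± 43.7 CPM (SD, n = 4). KRT5 and TP63, markers of basal cells, had 0 counts in all 8 libraries, and KRT14 and KRT15 had 7 and 2 counts over the EnzaR libraries and 26 and 3 over the LNCaP libraries. The neuroendocrine markers CHGA and INSM1 had 4 and 0 counts in EnzaR and 3 and 1 in LNCaP, while SYP was at 3.31 ± 1.12 and 1.86 ± 0.305 CPM. PTPRC and CD3E, markers of leukocytes, were at 0 in every library. Over the 4 tested members of the list of fibroblast, endothelial and immune markers, which are all collagen, PDGFRB or VWF transcripts, the summed level was 28.2 to 34.0 CPM in EnzaR and 118.9 to 132.4 CPM in LNCaP.

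At an adjusted p under 0.05 (edgeR quasi-likelihood test, Benjamini-Hochberg adjustment over 15622 genes), 5653 genes (36.2%) were higher and 5688 (36.4%) lower in EnzaR than in LNCaP. Together these were 11341 genes, or 72.6%. Ranges did not overlap for 5120 genes that were higher in EnzaR (32.8%) and 5210 that were lower (33.4%). With a fitted difference of at least 2-fold as well, 2469 genes (15.8%) were higher and 2859 (18.3%) lower, in all 5328 (34.1%), and this set is called the 2-fold set below. The median log2 fold change over all genes tested was -0.01 with TMM scaling and -0.11 with library totals only. TMM scaling itself brings this centre near 0, so the median cannot show whether most genes shifted together. The lists below are read relative to that scaling. In bulk RNA, fewer cells of a kind and less RNA per cell cannot be told apart.

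**Figure D1:**
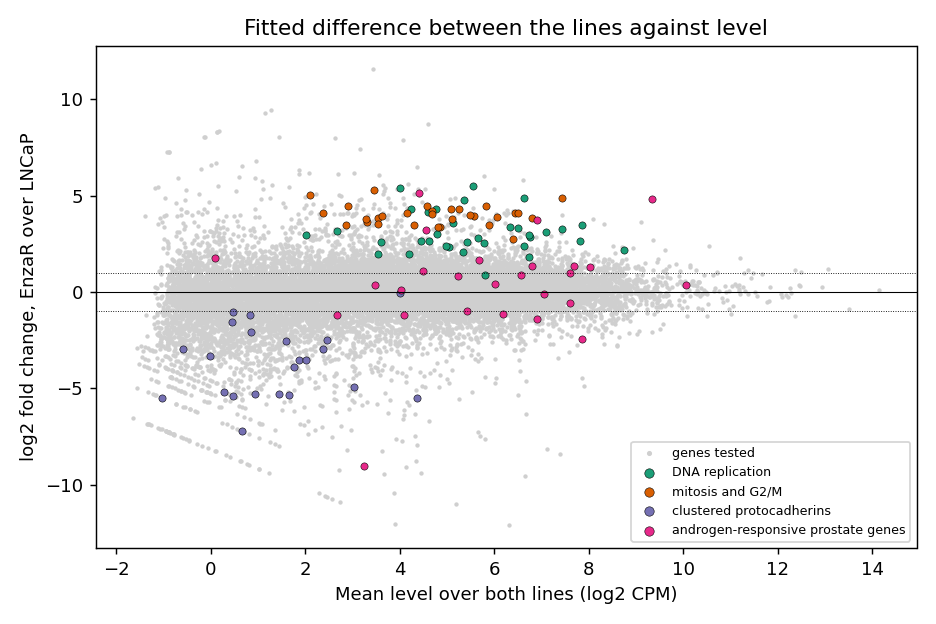
Fitted log2 fold change of EnzaR over LNCaP (vertical axis) against the mean level over both lines in log2 CPM (horizontal axis), 1 point per gene tested, with dotted lines at 2-fold. Members of the replication and mitosis lists lie above 0 at all levels, protocadherins lie at or below 0, and androgen-responsive genes lie on both sides.

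Genes of DNA replication and of mitosis were higher in EnzaR throughout. All 34 replication genes and all 30 mitosis genes were called higher, against 36.2% of all genes, with median log2 fold changes of 2.90 and 3.98 and with no overlap between the lines for any of the 64. CDC6, which loads the MCM helicase onto origins, was at 96.2, 101, 86.3 and 85.7 CPM in EnzaR and at 2.05, 1.64, 2.01 and 2.41 CPM in LNCaP. Every EnzaR library thus lay far above every LNCaP library, at a log2 fold change of 5.50 (SE 0.129, edgeR adjusted p = 3.74e-15). MCM10, another origin factor, was at 31.3 ± 4.93 CPM against 0.7399 ± 0.415 CPM, and CDC45, part of the active helicase, at 79.2 ± 9.79 against 2.86 ± 1.08 CPM (SD, n = 4). RRM2, the regulated subunit of ribonucleotide reductase, was at 214, 195, 174 and 185 CPM in EnzaR and at 7.76, 6.04, 4.12 and 7.84 CPM in LNCaP, with EV-siYAP1 the lowest LNCaP library. The smallest difference of the replication list was that of POLE, the catalytic subunit of polymerase epsilon, with a log2 fold change of 0.90.

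The mitosis genes spanned log2 fold changes of 2.77 to 5.28. CDC20, an activator of the anaphase-promoting complex, was at 306, 312, 372 and 355 CPM in EnzaR and at 15.8, 9.69, 7.97 and 11.7 CPM in LNCaP (log2 fold change 4.90, SE 0.164, edgeR adjusted p = 1.62e-13). The LNCaP control had the highest of the LNCaP values, and all lay far below EnzaR. NDC80, a kinetochore protein, was at 21.5 ± 4.23 against 0.543 ± 0.2397 CPM, and the spindle checkpoint kinase TTK at 8.35 ± 1.44 against 0.246 ± 0.0553 CPM (SD, n = 4). The lowest difference was that of FOXM1, a transcription factor of the mitotic wave, at 148 ± 11.3 against 21.7 ± 3.81 CPM. Summed over the list, mitosis transcripts were at 2172 to 2312 CPM in the EnzaR libraries and 119 to 170.3 CPM in the LNCaP libraries.

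DNA repair genes went largely the same way, with 18 of 22 called higher, 2 lower and a median log2 fold change of 2.32. Over all genes, 36.2% were called higher and 36.4% lower. The helicase gene BLM was at 4.18, 5.31, 4.45 and 2.94 CPM in EnzaR and at 0, 0.0529, 0.0542 and 0.274 CPM in LNCaP. BRCA1, of recombination repair, had a log2 fold change of 4.35 and the exonuclease gene EXO1 of 4.12. ATM, the double-strand break kinase, went the other way at 6.71 ± 1.799 against 14.3 ± 3.49 CPM (log2 fold change -1.08), as did the mismatch repair gene PMS2 (-0.63). PMS2 has near-identical pseudogene copies, so its count is uncertain. RB1, which encodes the retinoblastoma protein, was at 25.96 ± 4.81 against 8.29 ± 1.98 CPM, a log2 fold change of 1.65, and lay on chromosome 13, taken up below. The CDK inhibitor gene CDKN2A was at 4.46, 4.48, 7.83 and 6.35 CPM in EnzaR and at 137, 124, 113 and 125 CPM in LNCaP, and CDKN1C at 1.45 ± 0.221 and 45.1 ± 2.98 CPM.

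Promoters of these genes were read from RefSeq (GRCh38.p14, from 250 bases before to 50 bases after the start of each gene), and 2 are shown because they carry the letters that mark the replication and the mitotic wave. Each is printed from 250 bases before the start up to the start, or to the end of a site that lies past it, and capitals mark the matches. The CDC6 promoter (chr17:40287629-40287893, plus strand) has 1 match to TTTNNCGC, the core of an E2F site, 8 bases into the transcript. The CDC20 promoter (chr1:43358731-43358980, plus strand) has 2 matches to TTTGAA, the core of the cell cycle homology region bound by the DREAM complex, of which 1 lies on the other strand and reads TTCAAA here, and 2 CCAAT boxes, as bound by NF-Y.
CDC6: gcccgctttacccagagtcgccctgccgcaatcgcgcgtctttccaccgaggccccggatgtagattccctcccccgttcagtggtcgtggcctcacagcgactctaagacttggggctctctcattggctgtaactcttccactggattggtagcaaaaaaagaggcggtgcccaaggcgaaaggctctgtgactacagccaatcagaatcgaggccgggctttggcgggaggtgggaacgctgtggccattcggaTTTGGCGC
CDC20: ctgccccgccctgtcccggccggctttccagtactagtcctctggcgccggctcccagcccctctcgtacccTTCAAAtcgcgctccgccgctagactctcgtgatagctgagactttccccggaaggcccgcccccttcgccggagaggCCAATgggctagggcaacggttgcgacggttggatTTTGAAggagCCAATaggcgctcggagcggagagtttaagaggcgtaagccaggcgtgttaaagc

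Over both strands of the 300 bases, TTTNNCGC stood in 19 of the 30 replication promoters that matched the RefSeq table (63.3%), in 3 of the 24 mitosis promoters (12.5%), in 10.2% of the promoters of genes tested (1130 of 11118) and in 6.90% of all 27305 promoters. TTTGAA stood in 14 of the 24 mitosis promoters (58.3%) and 1 of the 30 replication promoters, against 9.20% of those of genes tested and 15.4% of all. CCAAT stood in 18 of the 24 mitosis promoters (75%) and in 17 of the 30 replication promoters (56.7%), against 36.6% of the promoters of genes tested. No difference in motifs between the lists was tested. A match is a description of the sequence and says nothing of binding in these cells.

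Androgen-responsive genes moved in both directions, and KLK3 and KLK2 were among the highest of those that rose. Of 26 tested, 16 were called higher and 8 lower, against 36.2% and 36.4% of all genes, with a median log2 fold change of 0.62. KLK3, which encodes prostate-specific antigen (ENSG00000142515, chromosome 19, 51358171 to 51364020 on hg19), had 1166, 1205, 1316 and 1276 CPM in EnzaR and 48.3, 40.98, 43.9 and 42.6 CPM in LNCaP. The EnzaR mean was 28.2-fold higher (log2 fold change 4.82, SE 0.098, edgeR adjusted p = 6.19e-16). The EnzaR cells were those kept in the antiandrogen. KLK2, its neighbour and paralog, was at 201, 214, 250.7 and 229 CPM in EnzaR and at 19.7, 16.6, 14.5 and 16.4 CPM in LNCaP. TRPM8, a cold-sensing cation channel, was at 54.99, 45.8, 29.3 and 34.2 CPM in EnzaR, lower in the siYAP1 libraries, and at 0.856, 1.48, 1.03 and 1.26 CPM in LNCaP. FKBP5, a chaperone of steroid receptors, was at 77.6 ± 7.45 against 24.7 ± 1.99 CPM and TMPRSS2 at 295 ± 32.5 against 117 ± 16.4 CPM (SD, n = 4).

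Other genes of that list were lower in EnzaR. NDRG1, which also answers to hypoxia, was at 83.8, 82.3, 59.3 and 59.96 CPM in EnzaR and at 467, 455, 335 and 299 CPM in LNCaP, with no overlap. CAMKK2, a kinase upstream of AMPK, had a log2 fold change of -1.42 and the potassium channel gene KCNN2 of -1.13. MAF, a transcription factor, had 2 counts over the 4 EnzaR libraries and 1379 over the LNCaP libraries, a ratio of 648 with a 95% counting interval of 179 to 5352. Such intervals cover counting error only. CENPN, although listed as androgen-responsive, is a centromere protein and rose with the mitosis genes (42.6 ± 2.98 against 4.65 ± 0.892 CPM).

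The KLK3 promoter is shown because KLK3 is the best known androgen target and had 1 of the largest rises. Letters of a relaxed androgen response element, an AGAACA half-site followed after a gap of 3 bases by its inverted partner with 2 positions left free, begin 170 bases before the start, in capitals. The 2 free positions are those at which the KLK3 letters differ from the full partner TGTTCT. The match in KLK3 was thus fixed by the pattern. The printed stretch is chr19:50854665-50854914 (GRCh38.p14, plus strand).
KLK3: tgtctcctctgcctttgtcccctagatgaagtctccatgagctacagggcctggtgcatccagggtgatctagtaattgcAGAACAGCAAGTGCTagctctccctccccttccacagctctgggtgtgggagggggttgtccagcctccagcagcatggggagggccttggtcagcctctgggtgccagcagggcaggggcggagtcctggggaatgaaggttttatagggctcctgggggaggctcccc
The same letters stood in 38 of all 27305 promoters (0.139%), in 8 of the 11118 promoters of genes tested and in 1 of the 18 matched promoters of the androgen-responsive list, that of KLK3. Because the pattern fits KLK3 by its make, these shares do not set KLK3 apart from other promoters.

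Of 15 steroid receptor and pioneer factor genes tested, 5 were called higher and 7 lower, near the 36.2% and 36.4% of all genes, with a median log2 fold change of -0.36. The median was -0.10 with 7 higher and 7 lower after the GC and length correction, -0.12 with 6 and 6 for EnzaR siNC against all LNCaP libraries, and 0.04 for siNC against the LNCaP control, so the list has no stable direction. FOXA1 was at 286 ± 13.4 against 455 ± 17.4 CPM and GATA2 at 353 ± 15.6 against 521 ± 24.2 CPM, both lower in EnzaR. GRHL2, an epithelial pioneer factor, was higher (log2 fold change 0.91). NR3C1, which encodes the glucocorticoid receptor, had 0 counts in EnzaR and 1 in LNCaP over 4 libraries each. NR3C2, the mineralocorticoid receptor gene, had 7 counts in EnzaR and 421 in LNCaP, a ratio of 56.5 with a 95% counting interval of 27.2 to 141. PGR, the progesterone receptor gene, was at 3.14, 4.42, 2.99 and 2.597 CPM in EnzaR and at 0.342, 1.06, 1.57 and 0.877 CPM in LNCaP (log2 fold change 1.76).

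Of 16 luminal markers, 5 were called higher and 5 lower, near the 36.2% and 36.4% of all genes, with a median log2 fold change of -0.05. FOLH1, which encodes prostate-specific membrane antigen, was at 189, 191, 182 and 168 CPM in EnzaR and at 380.1, 441, 424 and 463 CPM in LNCaP. Its ranges did not overlap (log2 fold change -1.23, SE 0.086). CDH1, which encodes E-cadherin, was at 414 ± 69.9 against 915 ± 56.4 CPM. STEAP1 rose (0.90 on the log2 scale) and its neighbour STEAP2 was at 159 ± 23.1 against 186 ± 25.5 CPM, with the LNCaP control below the other LNCaP libraries and overlapping ranges. KRT18, EPCAM and SLC45A3 had log2 fold changes of -0.01, -0.09 and -0.10 and were not called. For SLC45A3 the sign turned to 0.05 with the correction for GC content and length.

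**Figure D2:**
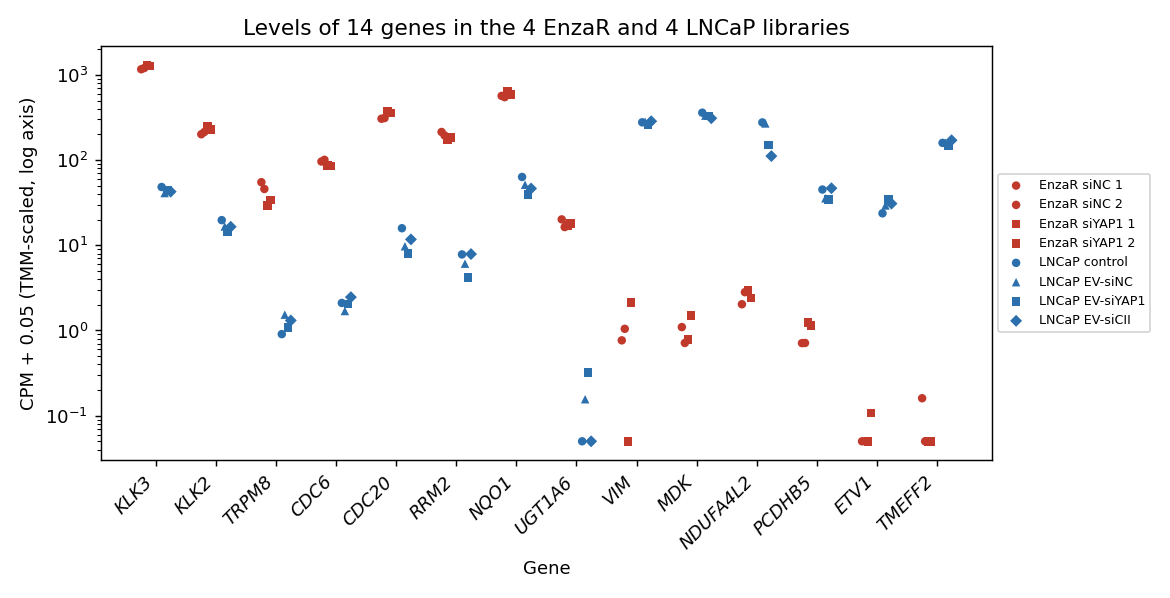
Level of 14 genes in CPM plus 0.05 on a log axis, with 1 point per library, red for EnzaR and blue for LNCaP, and marker shapes for the treatments. KLK3 and the cell cycle genes are higher in all 4 EnzaR libraries, and VIM, MDK, ETV1 and TMEFF2 are at or near 0 in EnzaR.

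Genes that conjugate steroids were higher in EnzaR, with 8 of 10 called higher and 0 lower (edgeR). At an unadjusted p under 0.05 the number lower was also 0, as it was by DESeq2 and limma-voom at the adjusted threshold, where 36.2% of all genes were called higher and 36.4% lower by edgeR. The same held for each other count of 0 given for a list below. The median log2 fold change was 1.95, or 1.85 with UGT1A3, which was at 0 in LNCaP, set at its lower bound. With a correction for GC content and length, 7 were higher and 2 lower (median 1.45). UGT1A6, a glucuronosyltransferase, was at 20.1, 16.3, 17.1 and 17.9 CPM in EnzaR and at 0, 0.106, 0.271 and 0 CPM in LNCaP. UGT2B15 and UGT2B17, which glucuronidate androgens, were at 69.6 ± 7.48 and 55.1 ± 6.44 CPM in EnzaR against 34.5 ± 4.97 and 36.6 ± 3.89 CPM in LNCaP. The UGT1A genes share their last exons and the UGT2B genes are close copies, so how reads were split between members is uncertain. Among genes of androgen synthesis, 9 of 13 were called higher and 3 lower (median 0.78, and 6 higher and 3 lower with a median of 0.28 after that correction). AKR1C2, a ketosteroid reductase, was at 60.2, 61.6, 79.9 and 75.8 CPM in EnzaR and at 2.11, 2.06, 3.198 and 1.97 CPM in LNCaP, and AKR1C3, which makes testosterone from androstenedione, at 10.98 ± 0.322 against 1.74 ± 0.273 CPM. These genes too are near-identical copies, and all 3 tested members rose. SRD5A1, a steroid reductase that makes dihydrotestosterone, went the other way at 31.7 ± 2.37 against 42.3 ± 0.947 CPM.

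More genes were near silence in EnzaR than in LNCaP. By the 2-fold rule with at most 3 counts in every library of the other line, 241 genes (1.54% of those tested) were near silent in EnzaR and 50 (0.32%) near silent in LNCaP. TMEFF2, which encodes a transmembrane protein with follistatin domains (chromosome 2, 192813769 to 193060435), had 2 counts over the EnzaR libraries and 11654 over the LNCaP libraries, a ratio of 5472 with a 95% counting interval of 1514 to 45190. It was at 159, 160.1, 147 and 171 CPM in LNCaP, so that a well expressed transcript of LNCaP was nearly absent from EnzaR. TFPI, an inhibitor of blood coagulation, had 2 counts against 5365, and the opioid receptor gene OPRK1 4 against 3189. ETV1, an ETS factor known to be rearranged in LNCaP (chromosome 7, 13930853 to 14031050), had 1 count against 2169, a ratio of 2037 with an interval of 365 to 80490. ERG had 0 counts in both lines. PLPPR3 and SH3BGRL had 6 and 4 counts against 2956 and 2580. TCEAL9, on the X chromosome, had 0 counts against 868 and was at least 67.4-fold lower, at a floor of 3 counts per library. TSKU-AS1 and MXRA7P1, an antisense and a pseudogene transcript, complete the 8 genes with the highest level per length among those that have a symbol. ETV1, named from the list of known features of LNCaP, is not among the 8. TSKU-AS1 and MXRA7P1 are uncertain, because the strand of counting is not given and the pseudogene has a parent copy.

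In the other direction, TM4SF18-AS1 had 2321 counts in EnzaR and 10 in LNCaP, a ratio of 247 with a 95% counting interval of 134 to 516, and is uncertain as an antisense transcript. LRRTM3, a synaptic adhesion gene, was at 21.6, 24.6, 17.6 and 22.4 CPM in EnzaR and at 0 in all 4 LNCaP libraries, at least 131-fold higher at a floor of 3 counts per library. SOHLH2, a germ cell transcription factor, had 861 counts against 3, and BRDT, a testis bromodomain protein, 503 against 7. MTFR2, a regulator of mitochondrial fission, had 425 against 10. IGHE, TIAM1-AS1 and CCDST had 252, 150 and 75 counts against 4, 0 and 0. LPL, which encodes lipoprotein lipase, had 378 counts against 1, a ratio of 403 with an interval of 71.8 to 15940.

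Among genes counted at least 10 times in every library, ID1 and ID3 stood first of those higher in EnzaR. ID1, an inhibitor of basic helix-loop-helix factors, was at 93.96, 93.3, 133 and 115 CPM in EnzaR and at 1.65, 1.32, 1.897 and 1.86 CPM in LNCaP (log2 fold change 6.01, SE 0.161, edgeR adjusted p = 1.56e-14). ID3, its relative on another chromosome, was at 191 ± 46.7 against 3.45 ± 0.191 CPM. SYT4, a synaptotagmin of vesicle release, was at 125 ± 8.37 against 3.05 ± 0.9399 CPM (SD, n = 4). SHCBP1, FAM111B and DTL, which are tied to the cell cycle, had log2 fold changes of 5.34, 5.32 and 5.08. HOXA11-AS had one of 5.05. Its start overlaps that of HOXA11 (6.06) on the other strand, and reads in the shared stretch cannot be told apart without strand.

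MDK, which encodes the growth factor midkine (chromosome 11, 46402306 to 46405375), had the largest fall of this kind. It was at 1.05, 0.663, 0.7298 and 1.44 CPM in EnzaR and at 360.2, 333, 331 and 310.1 CPM in LNCaP (log2 fold change -8.41, SE 0.156, edgeR adjusted p = 3.58e-16). NDUFA4L2, a hypoxia-inducible protein of the mitochondrion, was at 1.98, 2.76, 2.92 and 2.37 CPM in EnzaR and at 277, 269, 151 and 111 CPM in LNCaP. EV-siYAP1 and EV-siCII were the lower libraries of LNCaP, yet all were far above EnzaR. QSOX1, a secreted sulfhydryl oxidase, was at 15.4 ± 1.83 against 461 ± 22.4 CPM and PXDN, a peroxidase of the basement membrane, at 1.602 ± 0.406 against 74.9 ± 2.71 CPM. TNFRSF19, the adaptor gene SHC2, the glycosyltransferase gene GCNT1 and the lysophosphatidic acid receptor gene LPAR3 had log2 fold changes of -5.35, -5.20, -4.92 and -4.73.

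The longest stretches of neighbouring genes that differed in the same direction were the clustered protocadherins of chromosome 5. These genes encode cadherins of cell identity, and each variable exon has its own promoter. Of 22 tested on the list, 0 were called higher and 21 lower, against 36.4% of all genes, with a median log2 fold change of -3.52. The beta cluster with PCDHA1 held 15 neighbouring genes without overlap (140165876 to 140627799, hg19, median log2 fold change -5.28). The gamma cluster held 18 (140710252 to 140892546, median -2.49). PCDHB5 was at 0.661, 0.663, 1.19 and 1.096 CPM in EnzaR and at 45.1, 35.5, 34.6 and 46.7 CPM in LNCaP (log2 fold change -5.49, SE 0.196, edgeR adjusted p = 3.44e-13). PCDHB2 was at 0.512 ± 0.264 against 15.9 ± 2.63 CPM and PCDHGA12, at the far end, at 1.196 ± 0.195 against 9.26 ± 0.556 CPM. PCDHGC3, a C-type gene past the end of that run, was at 21.6, 16.4, 10.5 and 15.005 CPM in EnzaR and at 17.6, 15.6, 15.1 and 17.5 CPM in LNCaP, and its ranges overlapped. The gamma genes share their last exons and the beta genes are close copies, so the split of reads between members is uncertain.

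**Figure D3:**
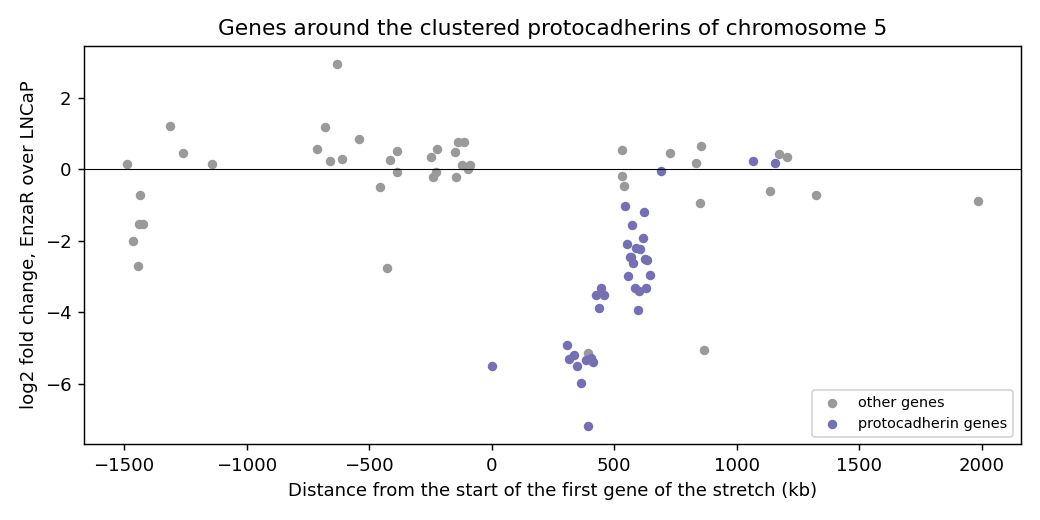
Log2 fold change of EnzaR over LNCaP for genes tested around the clustered protocadherins (vertical axis) against distance in kb from the start of the first gene of the stretch (horizontal axis). Genes of the beta run lie between -7.19 and -3.32, genes of the gamma run between -3.94 and -1.03, and PCDHGC3 and most flanking genes nearer 0.

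The promoter of PCDHB5 is shown as an example of the stretch, with its 4 CpG pairs in capitals (chr5:141134956-141135205, GRCh38.p14, plus strand).
PCDHB5: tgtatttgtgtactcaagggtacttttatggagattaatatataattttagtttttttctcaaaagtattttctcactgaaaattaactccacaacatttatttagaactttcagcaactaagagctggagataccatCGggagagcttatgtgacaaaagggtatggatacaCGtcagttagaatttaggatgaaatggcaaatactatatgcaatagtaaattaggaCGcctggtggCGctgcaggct
Over 300 bases, promoters of protocadherins held a median of 8 CpG pairs against 26 for genes tested, and 2 of 20 were CpG island-like (a CpG ratio of at least 0.6 and GC of at least 50%) against 79.0% of genes tested. The share was 51.1% for genes near silent in EnzaR (67 of 131 matched) and 48.3% for those near silent in LNCaP (14 of 29).

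Runs of at least 8 neighbouring tested genes without overlap in 1 direction numbered 25, of which 11 were higher and 14 lower in EnzaR. Whole chromosomes were uneven too. On chromosome 13, 55.4% of genes tested were higher without overlap and 17.1% lower, with a median log2 fold change of 0.60, where the shares over all genes were 32.8% and 33.4%. Chromosome 1 had 45.8% higher and 25.0% lower. On chromosome 11 the shares were 20.8% and 44.8%, on chromosome 12 23.8% and 44.3%, and on chromosome 19 19.6% and 39.9%. The highest median of 250 windows of 10 Mb was 1.05, on chromosome 13 from 30 to 40 Mb, and the lowest -0.89, on chromosome 5 from 140 to 150 Mb, the window of the protocadherins. GC content differs between chromosomes and moved with the difference, with a Spearman correlation across genes of -0.29 between transcript GC and log2 fold change. Genes are not independent replicates, and no test was made of that correlation. The part of GC content in the chromosome shares was not tested.

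**Figure D4:**
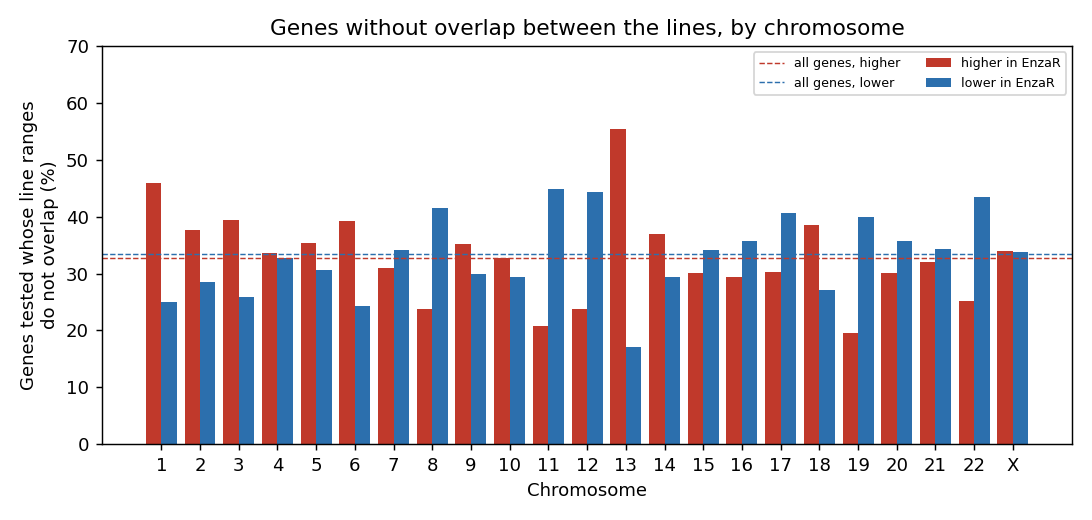
Share of genes tested in percent whose 4 EnzaR values all lie above (red) or below (blue) the LNCaP range, by chromosome, with dashed lines at the shares over all genes. Chromosome 13 stands highest for higher genes, at 55.4%, and chromosome 11 for lower genes, at 44.8%.

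Matrix, adhesion and receptor genes were more often lower in EnzaR. The shares over all genes, against which the counts of these lists stand, were 36.4% called lower and 36.2% called higher. Of 24 integrin, laminin and collagen genes, 16 were called lower and 3 higher (median log2 fold change -1.01), and 15 lower and 7 higher (median -0.61) with the correction for GC content and length. COL5A2 was at 0.216 ± 0.246 against 15.1 ± 2.59 CPM, and COL6A1 at 193, 199.9, 215 and 228 CPM in EnzaR and 863, 793, 894 and 875 CPM in LNCaP. The laminin gene LAMB1 was at 5.01, 4.09, 1.53 and 2.08 CPM in EnzaR, lower in the siYAP1 libraries, against 24.98 ± 4.17 CPM in LNCaP. TNC, the matrix protein tenascin C, rose, from 0.369 ± 0.232 CPM in LNCaP to 12.2, 10.01, 2.92 and 5.02 CPM in EnzaR, lower in the siYAP1 libraries. Of 27 growth factor receptors and ligands, 18 were called lower and 5 higher (median -0.98). EGFR was at 19.05, 13.9, 10.5 and 11.3 CPM in EnzaR and at 52.6, 58.03, 51.2 and 52.9 CPM in LNCaP, and ERBB2 at 206 ± 9.18 against 556 ± 48.3 CPM. EPHA7, an ephrin receptor gene, had 0 counts against 250 and was at least 19.4-fold lower at the floor of 3 counts per library. FGFR2 had 5 counts against 225, a ratio of 42.3 with a 95% counting interval of 17.8 to 131. IGFBP3, which binds insulin-like growth factors, was the largest rise, at 170.2, 138, 128 and 132 CPM in EnzaR and 10.04, 11.9, 6.29 and 7.398 CPM in LNCaP. In the Wnt list 16 of 30 were called lower and 6 higher, with FZD2, a Wnt receptor, at 0.299 ± 0.1304 against 9.37 ± 1.24 CPM and the transcription factor gene TCF7L2 at 1.31 ± 0.4099 against 13.6 ± 1.32 CPM.

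Few markers of mesenchymal, basal-like and neuroendocrine states had counts enough to be tested, though some of those were well expressed. Tested were 6 of 20 mesenchymal, 8 of 20 basal and other prostate line, and 6 of 22 neuroendocrine genes. Of the 8, 5 were called lower and 1, AKR1C3, higher, against 36.4% and 36.2% of all genes. LAMB3 was at 2.12 ± 0.545 CPM in EnzaR against 6.60 ± 0.971 CPM in LNCaP, and S100A2 at 0.587 ± 0.321 against 1.33 ± 0.133 CPM. VIM, which encodes vimentin, was at 0.716, 0.995, 0 and 2.08 CPM in EnzaR and at 278, 281, 261 and 286 CPM in LNCaP, so that LNCaP, not EnzaR, carried this mesenchymal transcript (log2 fold change -8.14, edgeR adjusted p = 1.35e-11). TGFB1 was at 0.246 ± 0.188 against 4.05 ± 1.14 CPM. The transition factors ZEB1, ZEB2 and TWIST2 had 5, 0 and 0 counts in EnzaR and 2, 0 and 0 in LNCaP, and CDH2, N-cadherin, 1 and 0. FN1, fibronectin, was at 459 ± 60.2 against 490.4 ± 17.6 CPM, and its ranges overlapped. Of the 6 neuroendocrine genes tested, SYT4 and SYP were called higher and 4 lower, against 36.2% and 36.4% of all genes. Among the 4 were TUBB3 at 3.98 ± 0.759 against 64.9 ± 7.09 CPM and ENO2, also a glycolytic gene, at 29.99 ± 2.21 against 157 ± 26.4 CPM.

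Of 14 tested YAP1 targets, 9 were called lower and 3 higher in EnzaR (median log2 fold change -0.83), with siYAP1 libraries among its 4. Over all genes, 36.4% were called lower and 36.2% higher. The largest change of this list was a rise, that of IGFBP3, named above, at 142 ± 19.2 against 8.91 ± 2.55 CPM (SD, n = 4). Summed over the list, the levels overlapped between the lines, at 307 to 382 CPM in EnzaR and 301 to 335 CPM in LNCaP. Of 22 Hippo pathway components, 12 were called lower and 5 higher (median -0.45), where 36.4% of all genes were lower and 36.2% higher. VGLL4, a competitor of YAP1 for TEAD factors, was at 35.5, 30.3, 35.4 and 40.3 CPM in EnzaR and at 169, 158, 145 and 142 CPM in LNCaP, with no overlap. Among the YAP1 targets, the focal adhesion gene ASAP1 had a log2 fold change of -1.42 and AJUBA, a LIM protein that binds LATS kinases, of -1.25. CCN1, a classical target, rose (14.8 ± 2.25 against 8.298 ± 0.998 CPM), while CCN2 and ANKRD1 had 2 and 0 counts in EnzaR and 5 and 0 in LNCaP. TEAD4 was higher (log2 fold change 1.00) and TEAD1 and TEAD2 lower (-0.77 and -0.96). With the siYAP1 libraries left out, 9 targets were lower and 3 higher against all LNCaP libraries (median -0.66), and after the GC and length correction the median of the targets was -0.45. Without the siYAP1 libraries 10 components were lower and 6 higher (median -0.19), closer to the shares over all genes. WWTR1, the paralog of YAP1, had 19 counts in EnzaR and 8 in LNCaP.

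Among hypoxia and glycolysis genes, 13 of 31 were called lower and 8 higher, against 36.4% lower and 36.2% higher over all genes. ADM, adrenomedullin, had 3 counts in EnzaR and 78 in LNCaP, a ratio of 24.4 with a 95% counting interval of 8.05 to 121, and PFKFB4 was at 15.4 ± 1.105 against 82.4 ± 23.1 CPM. The glycolytic genes ENO1 and LDHA rose, by 0.98 and 0.61 on the log2 scale, and GAPDH was at 4853 ± 420.3 against 5113 ± 722 CPM with no call.

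Genes of oxidative phosphorylation encoded in the nucleus were higher in EnzaR, with 26 of 31 called higher and 0 lower (median log2 fold change 0.62), or 20 higher and 6 lower (median 0.33) with the correction for GC content and length. Over all genes, 36.2% were called higher and 36.4% lower without that correction. SDHB, a subunit of succinate dehydrogenase on chromosome 1, was at 119, 122, 115 and 113 CPM in EnzaR and at 22.1, 24.9, 26.9 and 27.8 CPM in LNCaP (log2 fold change 2.20, SE 0.092, edgeR adjusted p = 2.09e-12). NDUFB3 of complex I had a log2 fold change of 1.73, UQCRC2 of complex III of 1.25 and SDHD of 1.27, while SDHA was at 263 ± 10.6 against 255 ± 17.98 CPM. Of the 13 mitochondrially encoded mRNAs, 8 were called higher and 0 lower (median 0.34), led by MT-ATP6 at 3658 ± 406 against 1663 ± 141 CPM and MT-CO2 at 7693 ± 807 against 3748 ± 235 CPM. With the correction for GC content and length, however, the median of the 13 turned to -0.45, with 2 higher and 10 lower, so their direction depends on that correction.

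Antioxidant genes under NRF2 rose, with 19 of 26 called higher and 2 lower (median log2 fold change 0.61), against 36.2% and 36.4% of all genes. NQO1, a quinone reductase and a standard target, was at 567, 548, 639.8 and 590.1 CPM in EnzaR and at 63.3, 51.4, 39.2 and 46.4 CPM in LNCaP (log2 fold change 3.55, SE 0.127, edgeR adjusted p = 3.46e-13). GCLM, of glutathione synthesis, had a log2 fold change of 2.09 and thioredoxin, TXN, of 1.93. HMOX1, heme oxygenase, was lower at 16.6 ± 2.19 against 21.4 ± 1.56 CPM. Of 30 cholesterol genes, 19 were called higher and 5 lower (median 0.59), with the sterol isomerase gene EBP at 167 ± 28.3 against 49.9 ± 4.07 CPM, IDI1 at 57.96 ± 8.14 against 17.98 ± 1.99 CPM and TM7SF2 lower at 196 ± 17.5 against 557 ± 44.7 CPM. Among fatty acid genes 13 of 23 were called higher and 6 lower, against the same shares over all genes. FASN, fatty acid synthase, was at 4165, 4269.9, 4025 and 4536 CPM in EnzaR and at 2456, 2012, 2072 and 2387 CPM in LNCaP, and ACSL4, an activator of polyunsaturated fatty acids, at 0.1103 ± 0.135 against 2.03 ± 0.884 CPM. Of 29 genes of the integrated stress response, 9 were called higher and 12 lower, near the shares of 36.2% and 36.4% over all genes. In this list DDIT4, an inhibitor of mTORC1, had the largest fall at 176 ± 22.2 against 539.9 ± 61.7 CPM.

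Interferon genes were more often called lower in EnzaR, and antigen presentation genes had no stable direction. Of 25 interferon genes 4 were called higher and 16 lower (median log2 fold change -0.76), against 36.2% and 36.4% of all genes. Of 19 presentation genes 10 were called higher and 6 lower (median 0.37). With the siYAP1 libraries left out 9 were higher and 8 lower (median -0.15), and with no filter on low counts the median was -0.13. B2M, the light chain of class I molecules, was at 371, 337, 389 and 371 CPM in EnzaR and at 113, 92.3, 84.01 and 84.1 CPM in LNCaP. NLRC5, the transactivator of class I genes, was at 18.1 ± 2.05 against 1.89 ± 0.526 CPM and HLA-B at 179.8 ± 25.8 against 66.98 ± 1.23 CPM, a class I gene whose close relatives may share reads. The class II genes HLA-DPA1 and HLA-DMA were lower (-3.01 and -1.90 on the log2 scale). STAT2, of interferon signalling, was at 23.2 ± 1.83 against 80.5 ± 6.45 CPM and IFITM2 at 3.97 ± 1.26 against 25.9 ± 5.69 CPM, whereas OASL and OAS3 rose by 1.89 and 1.76. Whether the 2 lists differ from each other was not tested.

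Germline and positional identity genes held single large differences. Of 15 cancer-testis genes 11 were called higher and 3 lower, against 36.2% and 36.4% of all genes (median log2 fold change 0.76). After the GC and length correction the median was 0.35, with 9 higher and 4 lower. MAGEA4 was at 41.01, 40.2, 43.4 and 37.5 CPM in EnzaR and at 0.969999, 0, 0.434 and 0.438 CPM in LNCaP, and MAGEC2 had 1 count in EnzaR and 396 in LNCaP, a ratio of 372 with a 95% counting interval of 66.4 to 14725. Several MAGEA genes are near-identical copies, and their split is uncertain. Of 19 homeobox genes 4 were called higher and 9 lower, against 36.2% and 36.4% of all genes. HOXA10 and HOXA11, of the posterior HOXA genes, were at 31.7 ± 11.2 and 23.3 ± 3.43 CPM in EnzaR against 4.83 ± 1.105 and 0.343 ± 0.07199 CPM in LNCaP. Within EnzaR, HOXA10 was at 43.3 and 39.1 CPM in siNC and at 24.3 and 20.1 CPM in siYAP1. HOXB3 and HOXB6 were lower, at 0.534 ± 0.156 and 0.941 ± 0.4004 against 4.28 ± 0.404 and 5.14 ± 1.03 CPM. Among prostate cancer long noncoding RNAs, PCAT1 was at 13.3, 16.4, 10.1 and 12.5 CPM in EnzaR and at 0.628, 0.9001, 0.759 and 0.877 CPM in LNCaP, and MALAT1 at 74.01 ± 19.1 against 74.4 ± 9.99 CPM.

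**Figure D5:**
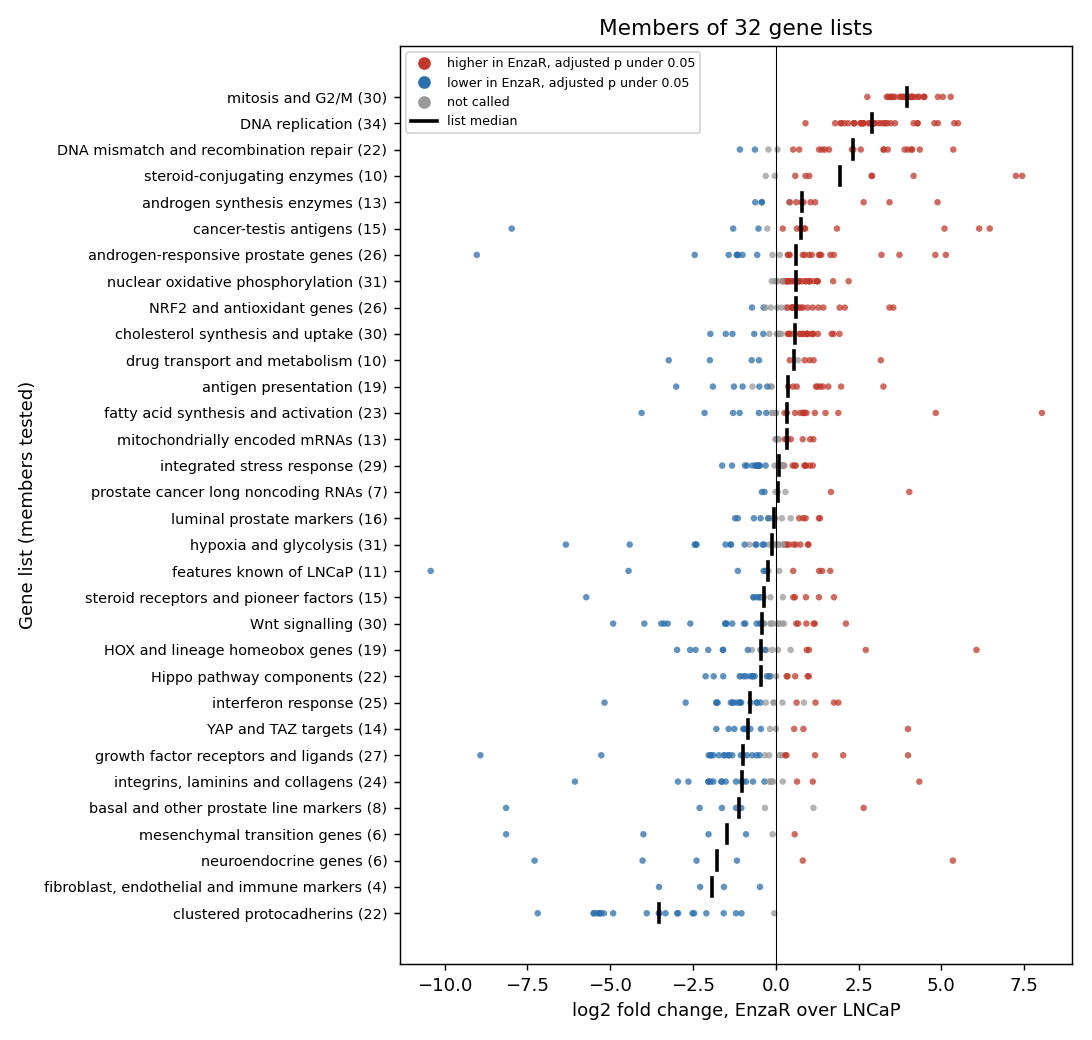
Log2 fold change of EnzaR over LNCaP for each tested member of 32 gene lists (horizontal axis), 1 row per list ordered by its median, with the number of members tested in brackets. Points are red or blue where the member was called higher or lower, and black bars mark the list medians, which run from -3.52 for the protocadherins to 3.98 for mitosis.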

How the data were processed

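The authors deposited 1 table of raw read counts per gene, with FPKM beside them, for 57905 Ensembl genes in 8 libraries of total RNA. Tools in the submitters' processing notes, given with no role or order, are HISAT2 2.0.1, HTSeq 0.6.1, cutadapt 1.9.1 and DESeq2, on hg19 (GRCh37), and the strand setting of counting is not given in the sources used here. The authors' FPKM served as the level per length by which genes near silence were ranked. The deposited counts, without 495 genes on the Y chromosome, were tested with edgeR 4.0.16 in R 4.3.3 (filterByExpr, trimmed mean of M values scaling, robust quasi-likelihood fit, line as the only term, Benjamini-Hochberg threshold 0.05), over 15622 genes. This test and its settings were also checked on simulated data. SE is the log2 fold change divided by the square root of F. Counting intervals are exact conditional limits at 95%. Gene names were matched by identifier for 40012 genes.

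Some genes that the rule takes, and 1 list, are not reported here. Members and the 33 lists were chosen with earlier results of these data known, and the lists got no test of their own. Named genes were those of the 2-fold set that have a symbol, as follows: the 8 per direction with the highest FPKM among genes with at most 3 counts in each library of the other line, the 10 per direction with the largest change among genes with at least 10 counts in every library and a mean of 10 CPM in the higher line, up to 4 called members per list, and checks of the labels. Further list members named with their values, and the genes named as exceptions, were chosen after their values were seen. Alternatives were DESeq2 1.42.0, limma-voom 3.58.1, other scalings, filters, thresholds and subsets of libraries, treatment terms, each library left out, and a smooth correction for GC content and length (mgcv 1.9.3).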

Additional observations from a re-analysis of the deposited data

Results flagged for a closer look

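Among 316 groups of 4 libraries examined, 19 held a library whose gap to the other 3 took more of the group's range than Dixon's 95% critical value, and chance gives about 1 in 20. The siYAP1 1 library had the lowest total of the EnzaR libraries, 16682669 counts against 18054075 to 18248939. In EnzaR, siNC 1 stood apart with GCLM at 61.2 CPM, ALDH3A1 at 0.826 CPM and PCDHB11 at 0.22 CPM, where the other 3 libraries had 0. The siNC 2 library stood apart with SYT4 at 137 CPM, SHC2 at 1.77 CPM, EXO1 at 17.2 CPM and DKK3 at 0.221 CPM, the last with 0 in the others. IFITM2 was highest in siYAP1 1, at 5.84 CPM. MYOF was lowest, at 0.231 CPM, and COL3A1 highest, at 3.35 CPM against 0 in the other 3, in siYAP1 2.

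In LNCaP, the control was lowest for IFI44, at 0.799 CPM, and for STEAP2, at 149 CPM. EV-siNC was lowest for ITGA5, at 94.0 CPM, and highest for NDC80, at 0.900 CPM. EV-siYAP1 was highest for AKR1C2, at 3.20 CPM, and for MYOF, at 1.68 CPM, and lowest for IFITM2, at 17.5 CPM. EV-siCII was lowest for TTK, at 0.164 CPM. All flagged genes other than STEAP2 had been named from the 2-fold set, which requires ranges without overlap over these same libraries. Their lack of overlap was thus fixed by the choice of genes. STEAP2, named as a check of the labels, overlapped between the lines.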

How the results depend on the processing

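No paired analysis was possible because each LNCaP group has 1 library and the labels give the LNCaP libraries no replicate number. Against a fold of 1.5 (glmTreat), 3194 genes were higher and 3439 lower, and with a mean of 5 CPM in either line 1822 genes were 2-fold lower without overlap, since fewer genes were tested. The other counts over all genes stayed within 1.5 times. With each library left out in turn, 5343 to 5778 genes were higher, 5561 to 5846 lower, 2411 to 2624 at least 2-fold higher and 2984 to 3137 at least 2-fold lower without overlap. These runs tested 15856 to 16022 genes, against 15622, and a line with a library fewer overlaps less easily. The count of 2859 from all libraries lies below the last range. All 34 replication and all 30 mitosis genes were higher under every alternative that tested them. The correction for GC content and length moved the median of all genes by -0.14 (log2) and the share of 2-fold calls that were higher from 46.3% to 36.4%. It turned the median of the mitochondrial mRNAs to -0.45, of the integrated stress response to -0.13, of the long noncoding RNAs to -0.0403, and SLC45A3 to 0.0509.

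Other signs turned as follows, and the cause was not tested. The median of the long noncoding RNAs was -0.0303 by limma-voom, -0.0257 with library totals and -0.0439 with the 5 CPM filter, and ran from -0.14 without EnzaR siNC replicate 1 to 0.256 without siYAP1 replicate 2. For the integrated stress response it was -0.0188 with library totals, and -0.0571, -0.12 and -0.15 for EnzaR siNC against all LNCaP libraries, against control with EV-siNC and against control. Antigen presentation gave -0.13 without a filter and -0.15 for siNC against all LNCaP libraries. For siNC against control, steroid receptors gave 0.0406, luminal markers 0.0589 and known features of LNCaP 0.13. With siRNA and vesicle terms, luminal markers gave 0.0578, features of LNCaP 0.12 and the integrated stress response -0.15. KRT18 gave a log2 fold change of 0.023 without a filter, and ran from -0.0713 without EnzaR siYAP1 replicate 1 to 0.0438 without the LNCaP control. STEAP2 gave 0.0312 for siNC against control with EV-siNC, 0.26 against control and 0.26 with treatment terms.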

Other observations

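Of 10 genes of drug transport and metabolism, a list not described above, 5 were called higher and 4 lower in EnzaR (edgeR, median log2 fold change 0.55), against 36.2% and 36.4% of all genes. ALDH3A2, a fatty aldehyde dehydrogenase, was at 187, 188, 138 and 134 CPM in EnzaR and at 65.8, 76.9, 78.8 and 71.2 CPM in LNCaP. GSTM3, a glutathione transferase, was at 219 ± 10.9 against 107 ± 6.53 CPM (SD, n = 4). The retinaldehyde dehydrogenase gene ALDH1A3 was lower, at 6.15 ± 2.79 against 24.6 ± 1.86 CPM, as was CYP3A5, a cytochrome that oxidises many drugs, at 0.324 ± 0.226 against 3.07 ± 0.736 CPM. Within EnzaR, ALDH1A3 was at 8.92 and 8.18 CPM in siNC and at 3.98 and 3.52 CPM in siYAP1.

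Among genes named for known features of LNCaP, 4 of 11 were called higher and 5 lower (median log2 fold change -0.22), near the shares over all genes. MSH6, of mismatch repair, was at 42.3 ± 6.03 against 17.1 ± 2.47 CPM. Of the 7 prostate cancer long noncoding RNAs tested, 2 were called higher and 2 lower, against 36.2% and 36.4% of all genes.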
